A study of Arabidopsis thaliana with 12 samples.

Results

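This report describes 33 genes of Arabidopsis thaliana, compared between plants returned to light after darkness (recovery) and plants kept in light (light adapted). After quantile normalization, all 33 had every recovery value above 0 higher than every light-adapted value above 0. They were chosen by their measured values: on quantile-normalized log2 intensities, a gene had to be alone on its array feature, to have at least 4 values above 0 in each group, and to show no overlap between the groups over those values, with recovery on top. Values at 0 were set aside by the rule: 8 members had any, 11 in light-adapted and 5 in recovery arrays. The 5 recovery zeros, 2 of AT5G46390 and 1 each of AT5G62550, AT5G13410 and AT2G48130, lie below light-adapted values of the same gene. Of 452 such genes, 46 met this rule, and 13 of these were left out by name, which leaves 33 of the 3439 features of the array. The rule thus fixes both the direction and the separation, and the differences below are descriptions, with no test.

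Both groups were wild-type plants of ecotype Columbia 0, and the labels name no organ, age or pooling. The 6 light-adapted samples came from plants kept in light, and the 6 recovery samples from plants given 1 h of darkness and then light again, for 2 h in the sample titles and for 1 h in the source names. No sample was taken in darkness. Each sample is 1 array of total RNA. Nothing in the labels says whether arrays of a group came from separate plants, so their spread may be technical.

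When a plant goes dark, photosynthesis stops and carbon supply, redox state and calcium in its organelles shift within minutes, and light reverses this. Many nuclear genes for chloroplast and mitochondrial proteins are known to follow light and sugar status. The 33 genes do not form 1 known pathway. They cover enzymes of lipid, sugar and nucleotide metabolism, proteases and a folding catalyst, organelle gene expression, calcium and ion handling, plastid electron transfer, and several proteins with no role given here. The roles given below are general knowledge of these loci and not taken from the deposited files, whose annotation names MAMI and TPP2 and lists the other 31 by locus tag only.

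Values below are deposited intensities, a unit with a top value of 100 on this array set, and differences are recovery minus light adapted in quantile-normalized log2 intensity, with the standard error of the limma fit over 6 arrays per group. That fit did not pair the arrays and took the 6 arrays of a group as independent. Arrays 1 and 2, 3 and 4, and 5 and 6 of a group gave like values for some members and not for others. The standard errors may therefore be too small. An array at 0 counts in the lowest and median intensity but is missing in the difference. On the deposited scale the recovery arrays were dimmer as a whole, with medians over all features of 0.0358 to 0.0400 against 0.0710 to 0.103, so the scaling bears on every member, and its effect is given gene by gene for some and over all members after the gene accounts. The median log2 difference over all features tested was -0.04 after quantile normalization, -0.82 as deposited and 0.19 after median centring. Array totals ran from 2286 to 3314, and exact zeros made up 17.9% to 28.6% of an array. Of 18 leaf marker genes, 3 were alone on a feature (LHB1B2, PSAN and PRK), with median light-adapted intensities of 43.0, 7.12 and 4.65. None of the 21 markers of root, seed, flower or guard cell was, so the organ could not be checked further.

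The differences of the 33 genes ran from 0.75 to 3.51, which is 1.68-fold to 11.4-fold, with a median of 1.62. There were 13 members at 2 or above, 18 between 1 and 2, and 2 below 1. The gap between the lowest recovery and the highest light-adapted value ran from 0.013 to 1.79, with a median of 0.50. It was over 1 for 4 members and under 0.1 for 8. The 13 genes left out had a median difference of 2.54.

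**Figure D1:**
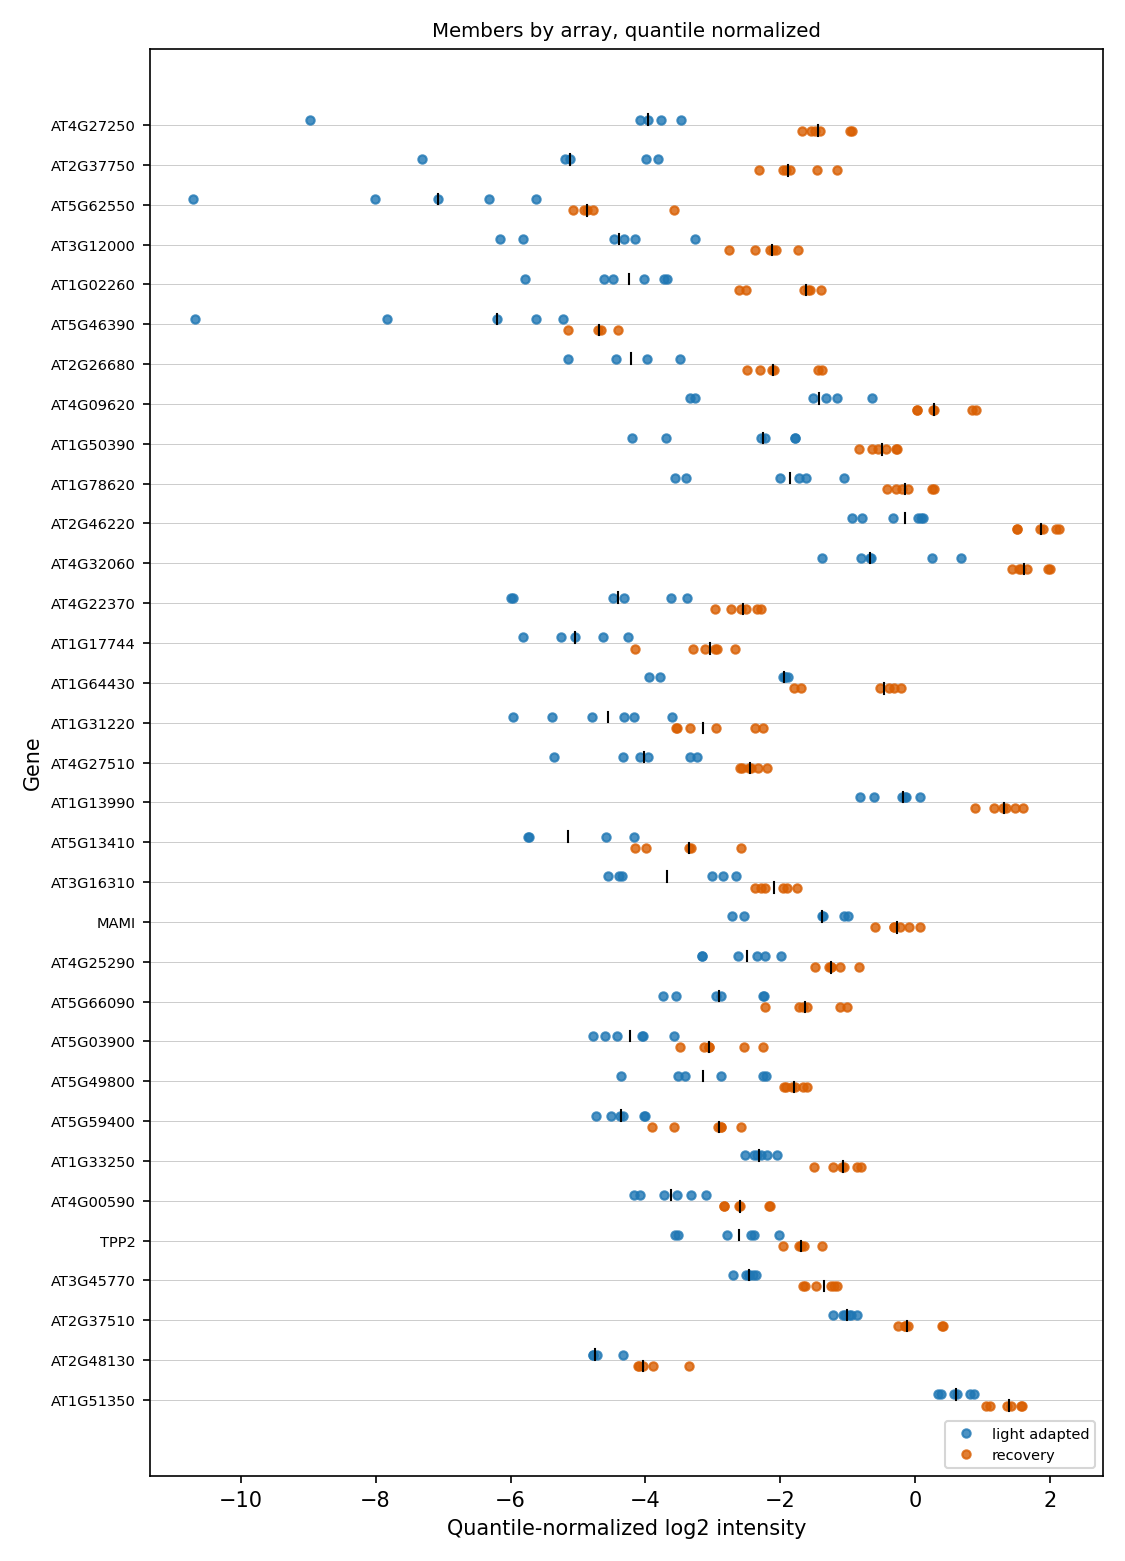
Quantile-normalized log2 intensity (horizontal) of the 33 members, 1 row each, sorted by difference, with 6 light-adapted arrays in blue, 6 recovery arrays in orange, arrays at 0 left out and the group median as a black tick. In every row the orange points shown lie to the right of the blue ones, as the rule requires, and the blue points of AT4G27250, AT5G62550 and AT5G46390 are the most scattered.

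The 4 brightest members were AT1G51350, AT4G32060, AT2G46220 and AT1G13990, each with a median over 1 across the 12 arrays. AT4G32060 encodes an EF-hand protein that regulates calcium uptake into mitochondria. Its intensity had a lowest value of 0.512, a median of 0.708 and a highest of 1.42 in light-adapted arrays, against 2.60, 3.81 and 4.05 in recovery. All 6 recovery arrays were above the brightest light-adapted array before any scaling, and the difference was 2.13 ± 0.326. AT2G46220, for which no role is given, behaved alike in size, with 0.499, 0.974 and 1.35 in light-adapted arrays and 2.36, 4.14 and 5.26 in recovery, a difference of 2.13 ± 0.244. Its groups lay far apart, with a gap of 1.39 on the normalized log2 scale. AT1G13990, also without a role here, had a lowest value of 0.555, a median of 0.834 and a highest of 1.39 in light-adapted arrays, and 1.94, 2.51 and 3.35 in recovery (1.61 ± 0.209). AT1G51350 encodes a protein of armadillo repeats, helical repeats that bind other proteins. It was the brightest member and had the smallest difference, 0.75 ± 0.181, from 1.22, 1.55 and 1.97 in light-adapted arrays to 2.56, 2.67 and 2.90 in recovery. Even so, its deposited values did not overlap.

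Among enzymes of sugars, nucleotides and other small molecules, 5 members were found, with differences from 1.21 to 3.51. AT4G27250, a reductase-like protein with an NAD(P)-binding Rossmann fold, had the largest difference of all members, 3.51 ± 0.862. In light-adapted arrays it was at 0 on 1 array, had a median of 0.0908 and reached 0.107, while in recovery it had a lowest value of 0.270, a median of 0.362 and a highest of 0.426. The recovery arrays formed a tight band above the others. Light-adapted replicate 1 was the array at 0, and replicate 2 lay near it at 0.00327, far below replicates 3 to 6. Without replicate 2 the difference was 2.53, and replicate 1 was missing from both differences. AT1G50390 belongs to the pfkB family of carbohydrate kinases, which includes fructokinases. Its intensities were 0.0844, 0.305 and 0.327 in light-adapted arrays and 0.594, 0.653 and 0.774 in recovery (lowest, median, highest), with a difference of 2.16 ± 0.414. The 2 groups did not overlap as deposited. AT2G26680, a methyltransferase of the FkbM family, was at 0 on 2 light-adapted arrays, with a highest value of 0.132, and had a lowest value of 0.134, a median of 0.198 and a highest of 0.310 in recovery. Its deposited values above 0 nearly touched, and the difference was 2.29 ± 0.366, or 5.87 with zeros set to the lowest measured value of the array. AT1G33250, related to fringe-type glycosyltransferases, was steady within light-adapted arrays at 0.220, 0.267 and 0.292 and higher in recovery at 0.279, 0.448 and 0.546 (1.21 ± 0.178), with 1 recovery array inside the light-adapted range. AT1G31220 encodes a formyltransferase of purine synthesis. Its difference was 1.70 ± 0.406, with median intensities of 0.0567 and 0.0832 and overlapping deposited values.

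The 4 members of lipid metabolism or lipid binding had smaller differences, with a median of 1.2. AT1G78620, a plastid membrane protein that phosphorylates phytyl phosphate, a step that returns phytol from chlorophyll breakdown to tocopherol synthesis, was the largest of these. Its intensities were 0.128, 0.291 and 0.644 in light-adapted arrays and 0.649, 0.943 and 1.11 in recovery, a difference of 2.14 ± 0.416. The highest light-adapted array all but met the lowest recovery array. AT3G45770, an enoyl reductase of mitochondrial fatty acid synthesis, had 0.178, 0.238 and 0.285 in light-adapted arrays and 0.250, 0.294 and 0.517 in recovery, where the ranges overlapped as deposited. Its normalized difference was 1.09 ± 0.168. AT5G49800, of a family that binds lipids and other hydrophobic ligands, stood at medians of 0.186 and 0.233 with a difference of 1.32 ± 0.341. As deposited its difference was 0.63, the groups overlapped, and recovery was higher in 4 of 6 same-numbered pairs. AT2G48130, a lipid-transfer protein, is the member whose direction depended on the scaling. It was dim, at 0 on 2 light-adapted arrays and 1 recovery array, with medians of 0.0587 and 0.0400, and its difference was 0.75 ± 0.247 after quantile normalization but -0.40 as deposited.

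Proteases and a folding protein made up 4 members, none of which separated on the deposited scale. TPP2, tripeptidyl peptidase II, a very large cytosolic protease that trims peptides, had 0.101, 0.221 and 0.360 in light-adapted arrays and 0.174, 0.239 and 0.430 in recovery. The deposited medians lay close together, and the normalized difference was 1.1 ± 0.281. AT4G00590, of the asparaginase type of N-terminal nucleophile hydrolases, had 0.0680, 0.132 and 0.164 against 0.0924, 0.138 and 0.163, so that the highest deposited value was a light-adapted one. Its normalized difference was 1.12 ± 0.239. AT5G46390 belongs to the S41 peptidases, the family of the protease that matures the D1 protein of photosystem II. It was among the dimmest members, at 0 on 1 light-adapted and 2 recovery arrays, with highest values of 0.0341 and 0.0346 in the groups. The difference of 2.38 ± 1.01 had the largest error of all members, and was 1.49 without light-adapted replicate 3 and 2.85 without light-adapted replicate 6. AT5G13410, a peptidyl-prolyl isomerase of the FKBP type in the thylakoid lumen, was at 0 on 3 of the 12 arrays, with medians of 0.0303 and 0.0568 and a difference of 1.58 ± 0.456.

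The 3 members classed under DNA and RNA were all separated before scaling, beside 162 of 2364 features (6.85%) over the table. Classes were assigned by hand after the members were known, so nothing is read from such counts by class. AT4G09620 belongs to the mTERF family, proteins that control transcripts of mitochondria and chloroplasts. Its intensity had a lowest value of 0.163, a median of 0.390 and a highest of 0.599 in light-adapted arrays, and 1.05, 1.24 and 1.55 in recovery. Every recovery array was far above the light-adapted range, and the difference was 2.27 ± 0.470. AT2G37510, an RNA-binding protein with an RNA recognition motif, had 0.465, 0.530 and 0.640 in light-adapted arrays and 0.780, 1.01 and 1.1 in recovery (1.05 ± 0.183), with little spread in either group. AT4G25290, a protein of the DNA photolyase family, some members of which use light to repair ultraviolet damage, stood at medians of 0.248 and 0.376 without overlap, with a difference of 1.39 ± 0.243.

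Membrane, transport and signalling proteins counted 5 members, AT4G32060 above included, with a median difference of 2.13. AT1G02260, annotated as a symporter of divalent ions, had 0.0311, 0.0780 and 0.128 in light-adapted arrays and 0.125, 0.244 and 0.374 in recovery, a difference of 2.49 ± 0.378. As deposited, the highest light-adapted array lay just above the lowest recovery array. AT3G12000, related to the S-locus glycoproteins known from Brassica self-incompatibility, had 0.0244, 0.0647 and 0.173 against 0.129, 0.168 and 0.239 (2.50 ± 0.445), with 1 light-adapted array inside the recovery range. MAMI is listed in the reference table as membrane-associated mannitol-induced. Its intensities were 0.204, 0.426 and 0.670 in light-adapted arrays and 0.519, 0.824 and 0.976 in recovery, which overlap as deposited, and the difference was 1.43 ± 0.323. AT3G16310, a component of the nuclear pore complex, had medians of 0.132 and 0.195 and a difference of 1.55 ± 0.367. It also overlapped as deposited, with a difference of 0.70 and recovery higher in 4 of 6 pairs.

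Both members of plastid electron transfer and iron-sulfur biology were dim. AT5G59400 is related to the PGR5-like proteins of cyclic electron flow around photosystem I, and had medians of 0.0716 and 0.0869 and a difference of 1.21 ± 0.254. AT5G03900, of an iron-sulfur cluster assembly family, had medians of 0.0821 and 0.0995 and a difference of 1.32 ± 0.271. For both, the deposited differences were small, at 0.18 and 0.33 on the log2 scale, and the deposited values overlapped.

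The remaining members have no role given here, apart from AT5G62550, annotated as a microtubule-associated protein related to Futsch of Drosophila. AT5G62550 was the dimmest member, at 0 on 1 array of each group, with medians of 0.00931 and 0.0226. Its difference was 2.90 ± 0.838, and 2.13 without light-adapted replicate 2. As deposited the difference was 1.72 and the groups overlapped. AT2G37750 had the second largest difference, 3.31 ± 0.554, although AT2G26680 passed it once zeros were set to the lowest measured value. It was at 0 on 1 light-adapted array, with a median of 0.0473 and a highest value of 0.0872, and at 0.192, 0.243 and 0.349 in recovery, so that its groups did not overlap as deposited. AT4G22370 differed by 2.05, AT1G17744 by 1.81, AT1G64430 by 1.75, AT4G27510 by 1.62 and AT5G66090 by 1.38. All 5 overlapped on the deposited scale, and of these AT1G64430 was the brightest, with medians of 0.310 and 0.574.

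**Figure D2:**
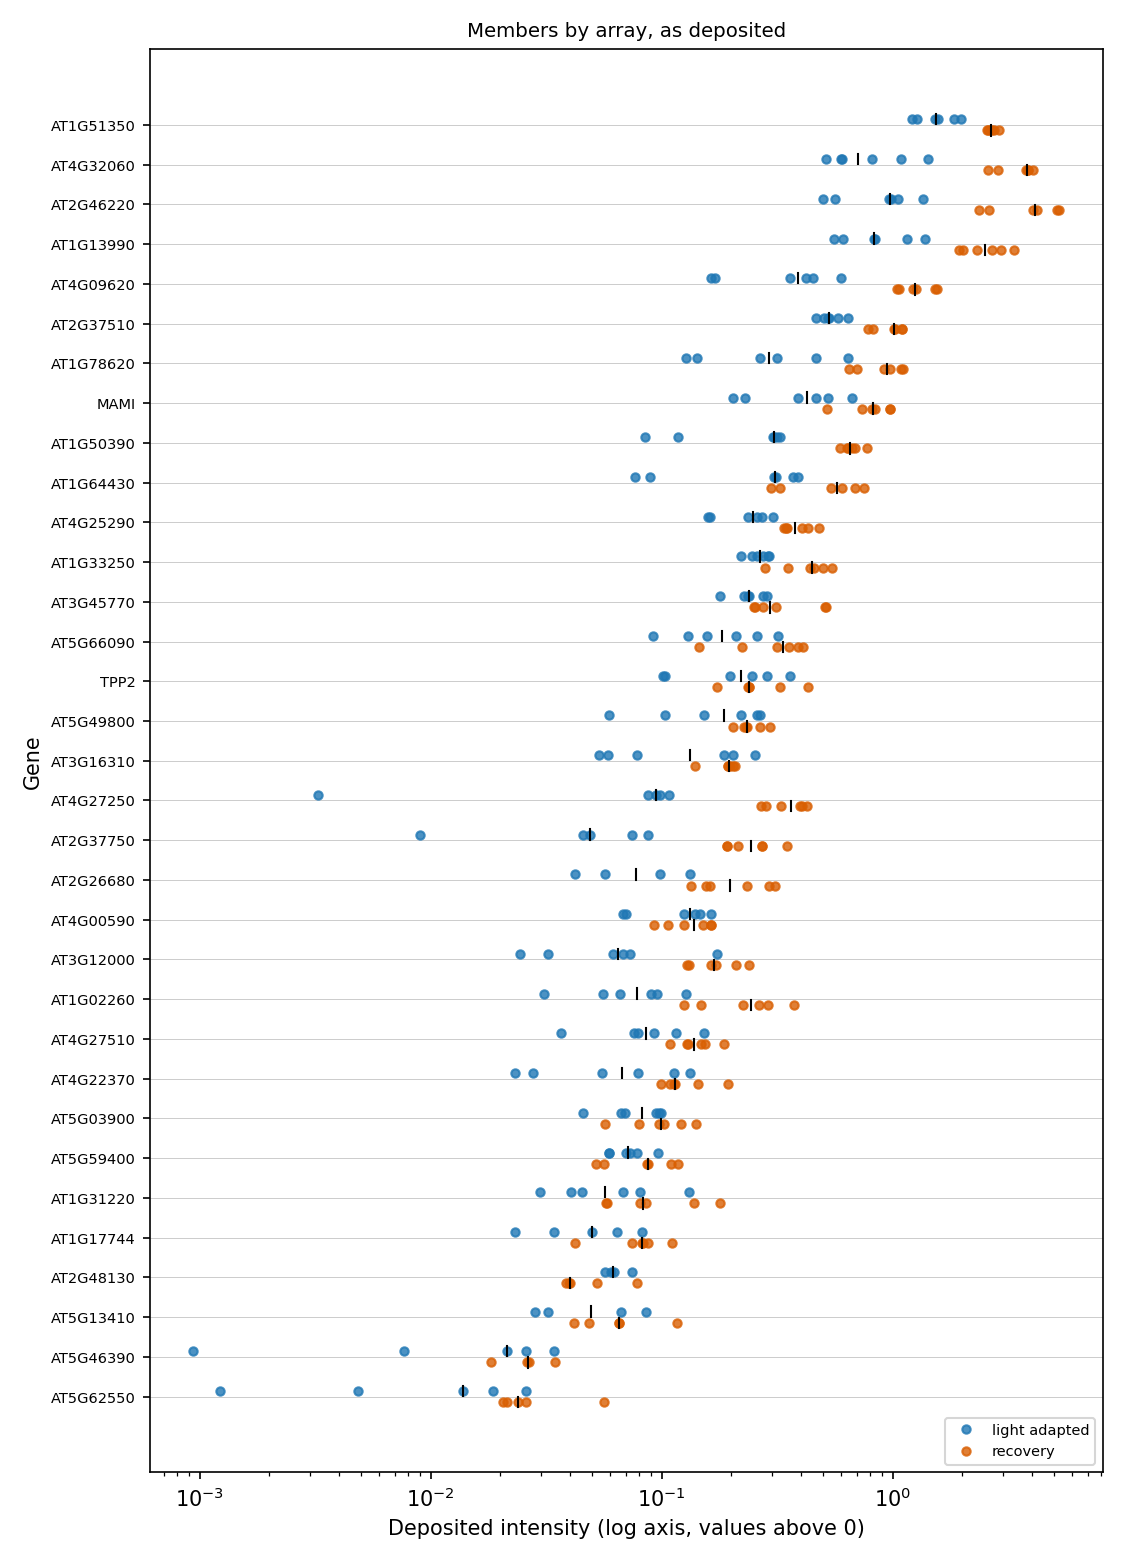
Deposited intensity (horizontal, log axis, values above 0) of the 33 members, sorted by their median over 12 arrays, with light-adapted arrays in blue, recovery arrays in orange and the median of the values shown as a black tick. The 4 brightest members separate without scaling, whereas the 8 members with a median under 0.1 overlap.

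How clean the separation of the members was differed with the scaling and with their brightness. As deposited, 12 of the 33 members kept their values above 0 apart and 21 overlapped. Over all features 162 of 2364 (6.85%) were apart with recovery on top, with zeros counted as values. All 4 members with a median intensity over 1 across the arrays were apart, as were 8 of the 21 between 0.1 and 1 and 0 of the 8 under 0.1. The share over all features was not split by brightness, so these counts describe the members only. The median difference of the members was 0.84 on the deposited scale, where the median of all features was -0.82, and 1.84 after median centring. By direction, 32 of 33 members had a positive deposited difference, AT2G48130 being the exception, and the deposited value was higher in recovery in all 6 same-numbered pairs of arrays for 19 members. The matching shares over all features were not counted. Because the rule chose members with recovery on top, nothing is read from these counts. After median centring all 33 were positive and 30 did not overlap, the others being AT5G46390, AT1G17744 and AT5G13410.

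**Figure D3:**
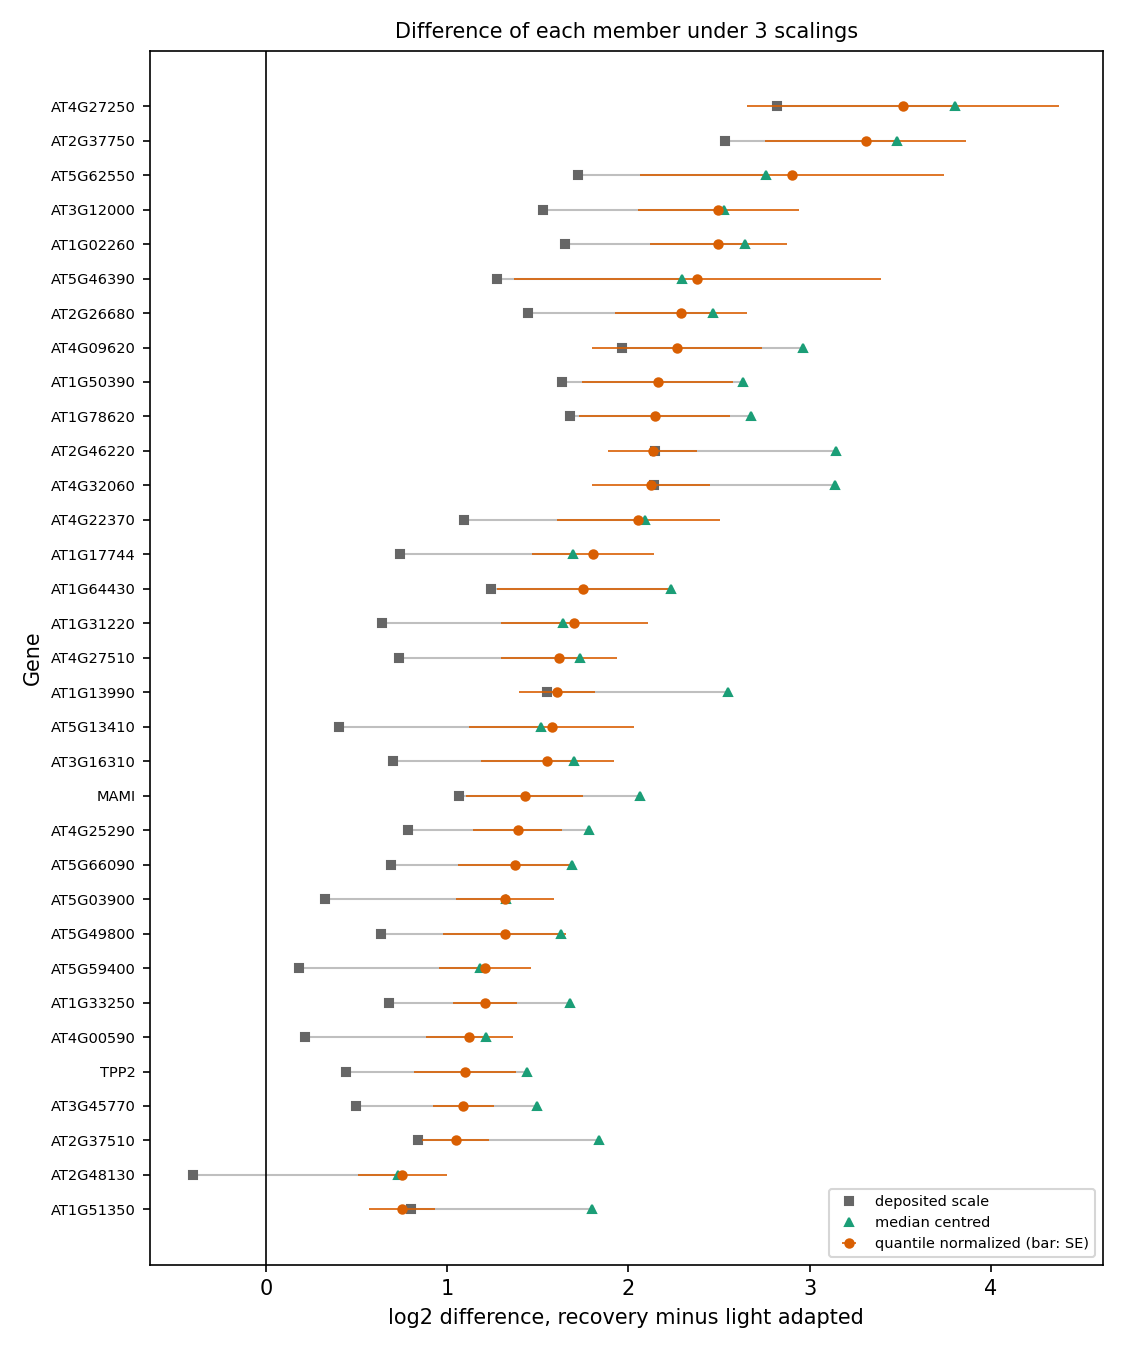
Difference of each member in log2 units (horizontal) as deposited (grey squares), quantile normalized (orange circles, bar 1 standard error) and median centred (green triangles). Grey squares lie from -0.40 to 2.82 and green triangles from 0.73 to 3.80, and AT2G46220, AT4G32060, AT1G13990 and AT1G51350 have nearly the same value as deposited and after quantile normalization.

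Members were set against the whole table. No overlap with recovery on top was seen in 314 of 2364 features (13.3%) and with recovery below in 310 (13.1%). Among the 452 genes alone on a feature it was seen in 46 (10.2%) and 64 (14.2%). As deposited, with zeros counted as values, 162 features (6.85%) were apart with recovery on top, and after median centring, with zeros missing, 498 (21.1%). In limma (Benjamini-Hochberg adjusted p under 0.05), 32 of the 33 members were called higher, AT5G46390 being the exception, beside 438 of 2364 features (18.5%), 66 of the 452 genes alone on a feature (14.6%), and 435 features called lower (18.4%). Because the same contrast chose the members, nothing is read from their count.

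The same counts moved with the scaling and with what counts as a sample. On the deposited scale 17 members were called, beside 226 features higher (9.56%) and 870 lower (36.8%), and after median centring 32, beside 646 higher (27.3%). The 16 not called as deposited were AT5G62550, AT5G46390, AT4G22370, AT1G17744, AT1G31220, AT4G27510, AT5G13410, AT3G16310, AT5G66090, AT5G03900, AT5G49800, AT5G59400, AT4G00590, TPP2, AT3G45770 and AT2G48130. With the replicate number as a block 30 were called, beside 406 (17.2%), and AT5G13410 and AT2G48130 lost their calls. Arrays 1 and 2, 3 and 4, and 5 and 6 of a group had like totals, a division into sets that the labels do not give and that was chosen after the data were seen. When each set was averaged, 3 against 3, 12 members were called, beside 199 features (8.42%). The 8 members called under quantile normalization, the deposited scale, median centring and set means alike were AT2G37750, AT3G12000, AT1G02260, AT2G26680, AT2G46220, AT4G32060, AT1G13990 and AT1G33250. How many of all features were called under all of these was not counted. These settings repeat the contrast that chose the members, so the list is no support for them. None of the 4 lipid members, the 4 members of protein folding and breakdown, the 3 classed under DNA and RNA or the 2 repeat and scaffold proteins (AT1G51350 and AT5G62550) was called with set means.

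Within the groups, members varied less in recovery. The median SD over members was 0.308 in recovery and 0.758 in light-adapted arrays (normalized log2), against 0.659 and 0.740 for the other 419 genes alone on a feature, and 26 of 33 members had the smaller SD in recovery. The rule that chose the members acts on these spreads, so this is a description. The light-adapted SD of the members was not smaller than that of the other genes. The cause of the smaller SD in recovery was not tested. In light-adapted arrays the 2 lowest values above 0 of a member came from the same set for 21 of 33 members. These were arrays 5 and 6 for 9, arrays 1 and 2 for 7 and arrays 3 and 4 for 5. Arrays at 0 were left out, and counting them would change the pair for some members. The matching share over all features was not counted, so nothing is read from this count. The lowest recovery value above 0 came from replicate 4 for 11 members and from replicate 3 for 8, and no recovery array set the limit for fewer than 2. The median normalized difference within same-numbered pairs was smallest in pairs 4 and 3, at 1.24 and 1.26, and largest in pair 1, at 1.85.

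The members had a median intensity in light near that of other genes alone on a feature. Their median light-adapted intensity was 0.132 against 0.141 for the other 419 genes, and their median recovery intensity was 0.243 against 0.0524. The rule asks for members that are high in recovery, and the deposited recovery arrays were dimmer as a whole. Nothing is therefore read from the second pair of values. The members are spread over all 5 chromosomes by locus tag, with 9, 5, 3, 8 and 8 on chromosomes 1 to 5. The closest neighbours, AT2G37510 and AT2G37750, are 26 protein-coding genes apart in the reference table. None of the members had another feature of its own, so none was measured a second time by a feature with 1 gene. For 5 members the gene was also listed on a feature with several genes, whose values are not given here.

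At the edge of the rule, the members with the smallest gaps were AT5G13410 at 0.013, AT5G66090 at 0.018 and AT1G31220 at 0.058. Just outside were SRX, a sulfiredoxin that repairs oxidized peroxiredoxins, at -0.0064, AT3G59980 at -0.019 and AT3G25410 at -0.059, with differences of 1.40, 0.93 and 0.75.

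**Figure D4:**
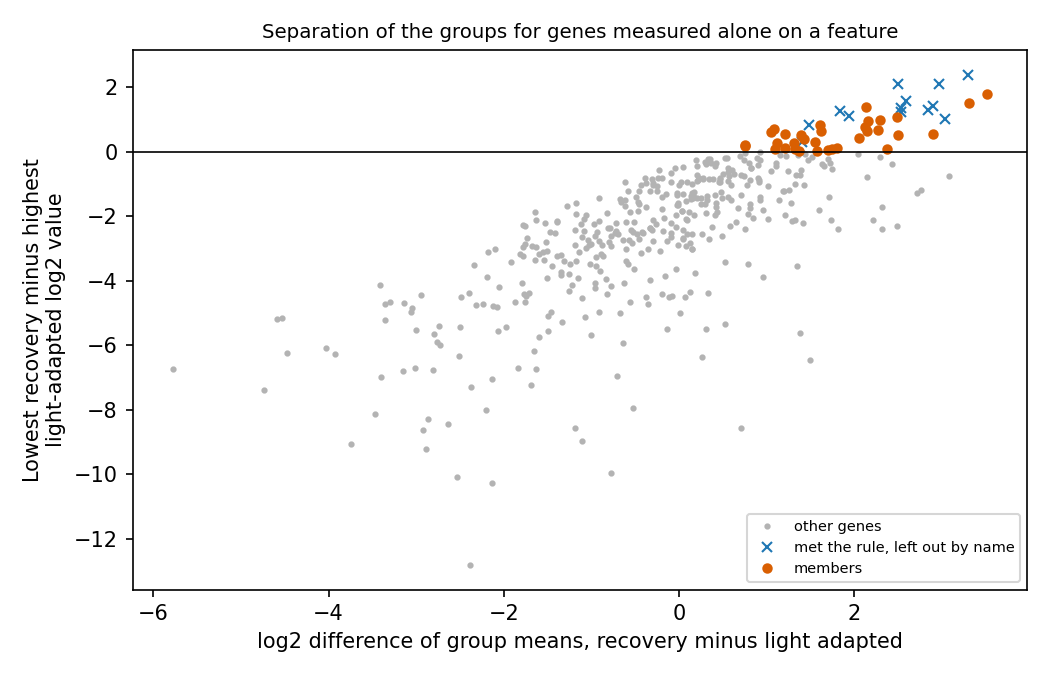
Lowest recovery minus highest light-adapted value (vertical, log2) against the difference of group means (horizontal, log2) for the 452 genes alone on a feature. The 33 members (orange circles) and 13 genes left out by name (blue crosses) lie above 0, several of them just above it, and genes with like differences lie just below.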

How the data were processed

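Labels describe 12 single-channel arrays, 6 per group. The intensity values, 1 per feature and array, are as deposited by the authors. They were taken as linear since exact zeros occur and no value is negative. Scanner, background correction and normalization: not given in the sources used here. Scale and centring of the values therefore remain unknown. Gene names came from the platform annotation (692 features with 1 gene, 870 with several, 1877 unnamed), updated through gene identifiers to a TAIR10.1 table, which matched 690.

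Intensities were taken to log2 with 0 as missing and quantile normalized over all features. The 2364 features with at least 4 values above 0 per group were fitted in limma 3.58.1 under R 4.3.3 (lmFit, eBayes, Benjamini-Hochberg, two-sided), after a test on simulated data. Figures used matplotlib 3.10.9 under Python 3.11.15. The members, the 15 genes left out (13 of which met the rule) and the lists were chosen with earlier results of these data known. Values by array were given for members ranked by difference (12), by intensity (8) and by gap (6), and for up to 2 per functional class without zeros, 20 genes in all. The reference held no descriptions or sequences, so classes were assigned by hand from general knowledge after the members were known, and planned motif and protein counts were not made. Same-numbered arrays deviated together (r 0.108 to 0.193 for 6 pairs over 1429 features above 0 on every array). The numbers were therefore taken as pairs, but only in the replicate block and where pairs are named. The main fit, with its standard errors and calls, did not use the pairs. The pairing rests on the values and not on the labels.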

Additional observations from a re-analysis of the deposited data

Results flagged for a closer look

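Single arrays stood apart from the other arrays above 0 in 3 of 66 combinations of member and group. The test was Dixon's gap test on normalized log2 values, with arrays at 0 left out. The values printed here are deposited intensities, and each of the 3 flagged groups also held at least 1 array at 0. Chance alone gives about 1 in 20 such flags. AT4G27250 was at 0.00327 in light-adapted replicate 2, against 0.0875 or more on the other arrays above 0, with replicate 1 at 0. AT5G62550 was at 0.0563 in recovery replicate 1, where the next highest array was at 0.0258 and replicate 2 was at 0. AT2G48130 was at 0.0746 in light-adapted replicate 3, with the next highest at 0.0625 and replicates 5 and 6 at 0.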

How the results depend on the processing

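The number of genes meeting the rule, 33 here, was 14 as deposited (12 of them members), 62 after median centring (30 members) and 72 (32 members) when the replicate block replaced the rule, that is, when recovery only had to be higher in every same-numbered pair. It was 36 to 44 when 1 array was left out, which loosens the rule by construction. Features called higher by limma numbered 226 as deposited, 199 with set means (an alternative added after the data were seen) and 383 to 446 with 1 array left out. Features called lower numbered 870 as deposited, 277 with zeros set to the lowest measured value, 206 with set means and 389 to 430 with 1 array left out. Members called numbered 17 as deposited, 12 with set means, 30 with the replicate block and 30 to 32 with 1 array left out. AT2G48130 lost its call without any 1 of light-adapted replicates 1, 2 and 4 and recovery replicates 2 to 6, and AT5G13410 without light-adapted replicate 1 or 3. The median difference of the members was 0.84 as deposited, 1.84 after median centring, 1.99 with zeros set to the lowest measured value and 1.58 to 1.80 with 1 array left out. The sign of AT2G48130 turned as deposited, at -0.40. The cause of these shifts was not tested. With zeros set to the lowest value, AT1G17744, AT5G62550, AT5G13410 and AT2G48130 lost their calls while their differences grew, to 3.72, 4.86, 3.51 and 2.52. Under the same setting the differences were 5.97 for AT4G27250, 5.87 for AT2G26680, 5.75 for AT2G37750, 3.50 for AT3G12000 and 2.88 for AT4G22370. Normalizing after the filter changed no call of a member. Requiring 6 values above 0 per group left 25 members, all called, beside 393 features called higher. How many features entered under that setting is not given here. The contrast is the one that chose the members, so nothing is read from the counts of members called. The replicate block changed no call of a member other than AT5G13410 and AT2G48130. What signal over background limits could not be measured, since no background values were used here.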
